A study of Mus musculus with 12 samples.

Results

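The reference condition of a 12-array experiment on mouse splenocytes is described here from its 3 arrays. They were chosen by their treatment label, which names coculture with KLN205KD cells and neither SEMA6A overexpression nor SEMA3A protein, and they are 3 of the 12 arrays of the series. In that series, spleen cells of 10-week-old DBA/2 mice were kept for 9 days with tumour cells, and interleukin-2 (IL-2) was given every 3 days at 100 units/mL. The tumour cells were KLN-205, a mouse lung squamous carcinoma line, carrying a knockdown of SEMA3A, a secreted semaphorin. This knockdown was common to all 4 groups of 3 arrays. The other groups had SEMA6A, a membrane-bound semaphorin, overexpressed in the tumour cells, purified SEMA3A added at 10 µg/mL, or both, whereas the condition described here had 0 µg/mL of added SEMA3A. Total RNA (6 µg) was turned into biotin-labelled cRNA, and each sample had its own single-colour array. The labels call the 3 arrays replicates 1, 2 and 3 and do not say whether these came from separate mice, cultures or tumour cell passages, so the spread between them may be technical. The design text speaks of splenocyte RNA, and the sources used here do not say how the splenocytes were separated from the tumour cells.

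IL-2 is the growth factor of activated lymphocytes. It binds a receptor made of an alpha, a beta and a common gamma chain, signals through JAK kinases and STAT5, and drives CD8 T cells and natural killer (NK) cells to divide and to load granules with perforin, a pore-forming protein, and granzymes, serine proteases that enter the target cell with its help. Spleen cells kept in IL-2 are known to become cultures of mostly T and NK cells. Squamous carcinoma cells are known for keratins, desmosomal proteins and the transcription factor p63.

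Values are deposited signals on a linear scale, 1 per probe set. A gene was represented by its brightest probe set, which gave 18193 genes. A gene is called bright where its signal lay in the top 10% of all probe sets on each of the 3 arrays. It is called above the median where it lay above its array's median on each of the 3, low where it lay below on each, and mixed otherwise. Of all genes, 15.2% were bright, 54.7% were above the median with the bright genes included, and 38.1% were low. These shares are the background for every list below. The array medians were 44.6, 45.9 and 42.5, the thresholds of the top 10% were 1763, 1750 and 1747, and the highest signals were 48407, 44046 and 51729. No detection calls were used, so a low gene is one with a signal below the array median and not one shown to be absent. Probes differ in affinity, so ranks order signals and not amounts of RNA, and in a mixed culture fewer cells of a type and less RNA per cell cannot be told apart. Means are given with the SD over n = 3 arrays, and the number of arrays limits their precision.

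The brightest genes were those of protein synthesis, the cytoskeleton and the cytotoxic granule. Rpl38, a protein of the large ribosomal subunit, had the highest mean signal, 47999 ± 3950.0, and was followed by Rps29 at 46597 ± 2251 and Rps3a1 at 45596 ± 2811. Lgals1, which encodes the secreted lectin galectin-1, ranked 4 of 18193 at 45354 ± 3964. Granzyme D (Gzmd) ranked 6 and granzyme B (Gzmb) ranked 10, so that 2 granzymes stood among the 10 brightest genes. Tmsb4x, which encodes the actin-binding thymosin beta-4, had a signal of 44175 ± 2395. The remaining members of the brightest 20 were Rplp2, Rpl13a, Rps18, Rps28, Rplp0, Rps10, Rpl4, Rpsa and Rps24 of the ribosome, cytoplasmic actin Actg1, the elongation factor Eef1a1, the translationally controlled protein Tpt1 and the chaperone Hspa8, with means from 37686 to 44678. Among the 100 brightest genes, 33 had a symbol of the form Rpl, Rps or Rplp with a number, a count that leaves out the ribosomal genes Rpsa and Fau, and 6 encoded granzymes.

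The 5 genes set to characterise the culture were bright on each array. Gzmb had signals of 43336, 38147 and 47885, with the lowest on replicate 2 and the highest on replicate 3. Perforin (Prf1) had signals of 13773, 13344 and 16135, also highest on replicate 3. Its second probe set read 59.0, 74.8 and 54.6, above the array medians but not bright, so the level of this gene rests on 1 of its 2 probe sets. Mki67, the antigen of dividing cells, read 8717, 9245 and 9759. Cd3e, a signalling chain of the T cell receptor, read 4872, 4039 and 4389.8. Cd8a, the alpha chain of the CD8 coreceptor, read 3496, 3703 and 2802 on its brightest probe set, and replicate 3 was the lowest of the 3 arrays on each of its 5 probe sets. The markers of T cells, CD8, the cytotoxic granule and division thus agreed in class. The defining genes of most other cell types of the spleen lay near or below the array median. Of the squamous markers, Krt5, Krt14 and Trp63 did too, while Epcam was well above it at 1104, 610 and 905. Kit and Cpa3, set for mast cells, and H2-Ab1, set for dendritic cells, were above the median on each array without being bright. Each gene is described by its cell type below.

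**Figure D1:**
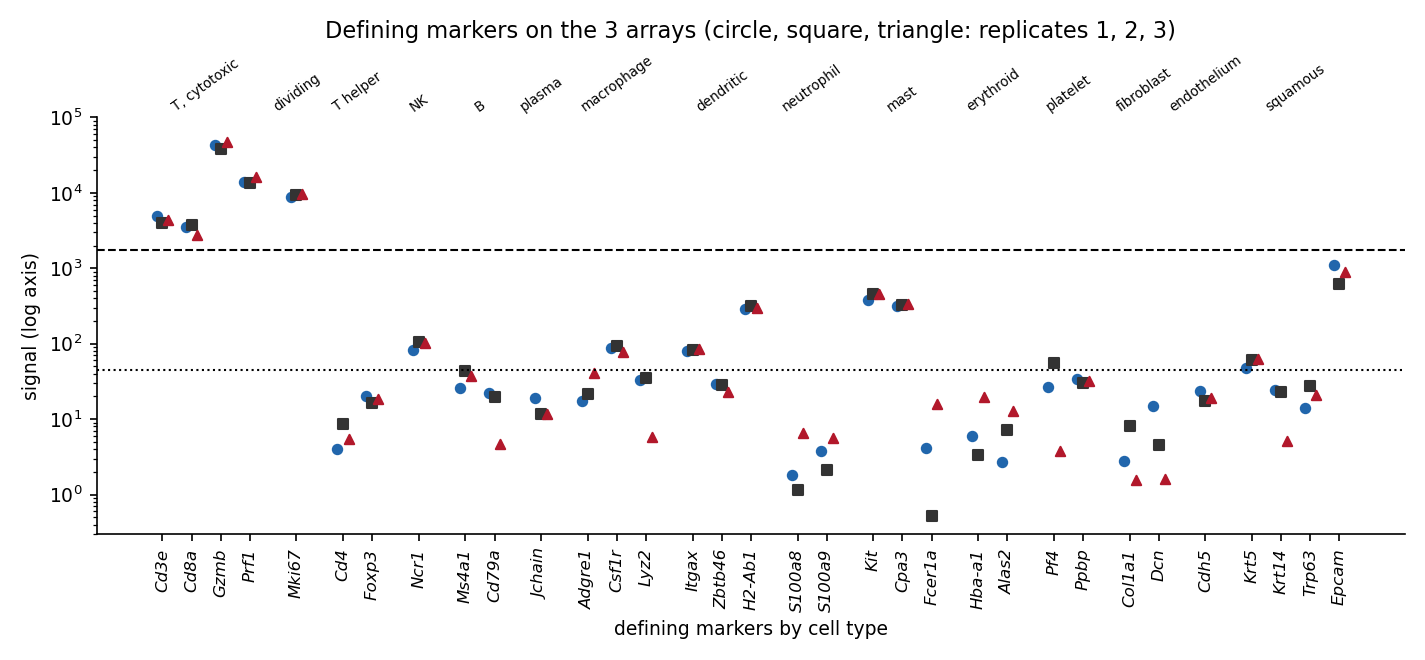
Signal of defining marker genes on each of the 3 arrays, on a log axis; the dashed line is the mean threshold of the top 10% and the dotted line the mean array median. Cd3e, Cd8a, Gzmb, Prf1 and Mki67 lie above the dashed line on each array, Kit, Cpa3, H2-Ab1 and Epcam lie between the lines, and markers of B cells, neutrophils, red cells and fibroblasts lie at or below the dotted line.

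The 25 genes of the cytotoxic granule and its release were measured with 18 bright, 6 above the median and 1 low. Their median percentile among all probe sets was 97.1, against 60.5 over all named genes. Granzyme A (Gzma), the tryptase of T and NK cells, read 34417, 33519 and 31418. It is not a neighbour of Gzmb in the genome, yet its signal was of the same order. Srgn, the proteoglycan serglycin that packs granule proteases, read 24758, 21992 and 26874, and Nkg7, a granule membrane protein, read 19586, 17540.3 and 20065. The protease inhibitors that shield the killer cell from its own granzymes were bright as well, with Serpinb9 at 14389 ± 666 and Serpinb6b at 5664 ± 185.

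Of the cathepsins in the list and their inhibitor Cst7, all but Ctsl were bright. Ctsw, a cathepsin of cytotoxic lymphocytes, had a signal of 7984 ± 1058, Cst7, the cathepsin inhibitor cystatin F, 6758 ± 1123, and Ctsc, which activates granzyme precursors, 4719 ± 139.7. For Ctsc 1 of 3 probe sets lay above the median. Fas ligand (Fasl), the second killing route, read 4140.5, 4569 and 3906, and Lamp1, which reaches the surface when granules are released, read 6051, 5463 and 6041. The genes of granule docking and fusion covered a lower range. Unc13d was bright at 2072 ± 85.1, while Rab27a, Stxbp2 and Stx11 were above the median at 1331 ± 123, 860.2 ± 65.4 and 768 ± 72.0. Of the remaining members, Ctsl had a mean of 212, granzyme M (Gzmm) read 424, 259 and 380.3 and granzyme K (Gzmk) read 532, 679 and 267. Gzmk had the largest spread of the list, with replicate 3 the lowest. Gzmn was the single low member, at 27.3, 15.6 and 33.7.

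**Figure D2:**
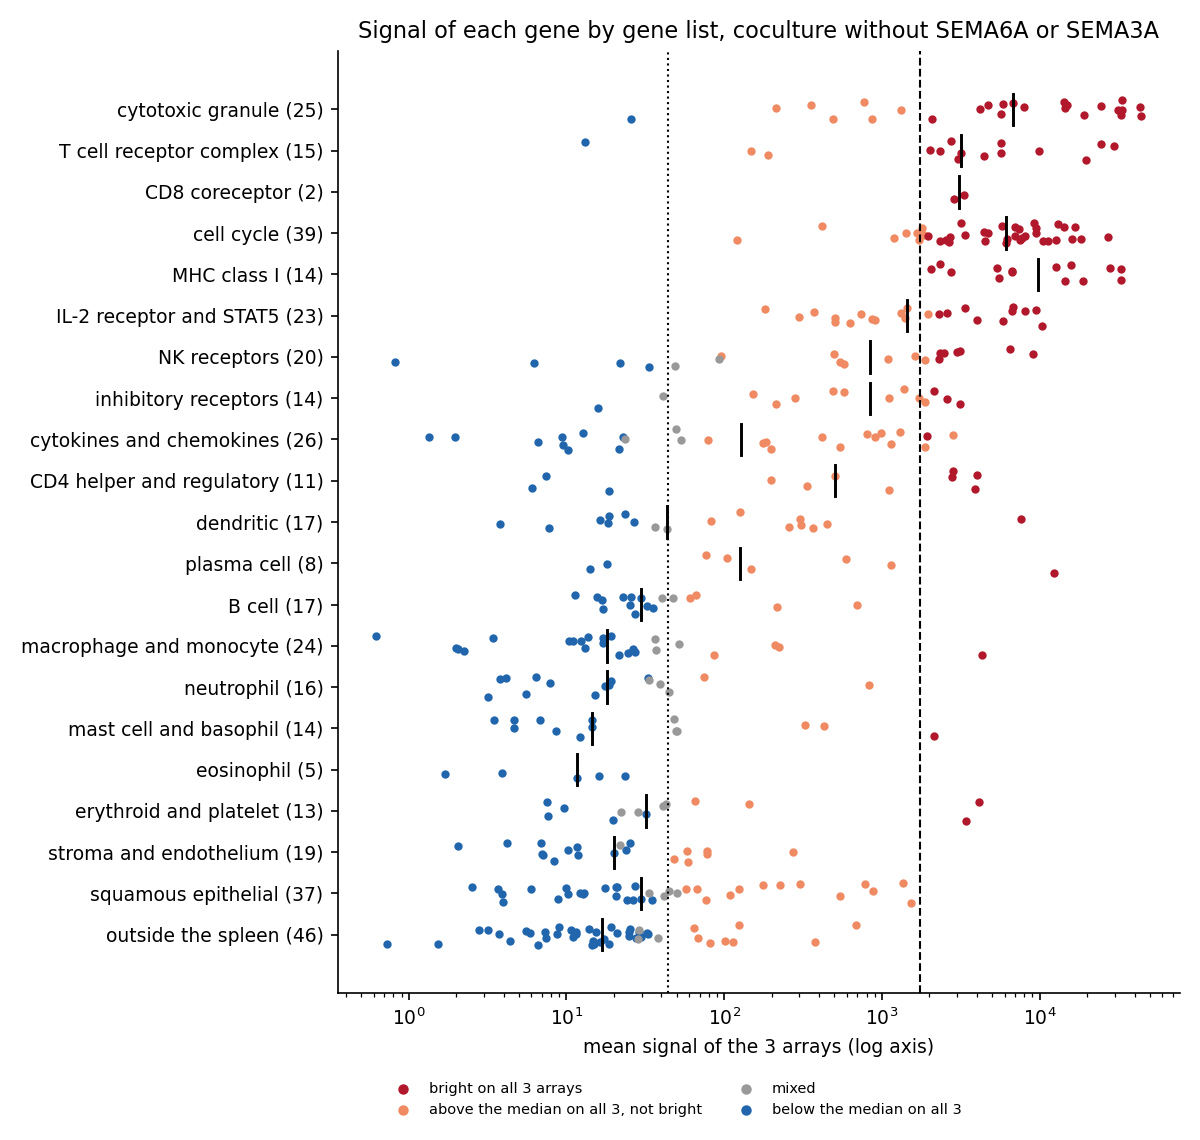
Mean signal of each gene over the 3 arrays, on a log axis, grouped by gene list with the number of genes in brackets; colours give the class, black bars the list medians, the dashed line the mean threshold of the top 10% and the dotted line the mean array median. Points of the cytotoxic granule, T cell receptor complex, cell cycle and MHC class I lists lie mostly right of the dashed line, and those of the myeloid, B cell, stromal and squamous lists lie mostly around or left of the dotted line.

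Most granzyme genes lie side by side with the chymase genes of mast cells and neutrophils on mouse chromosome 14, and the signals along this row changed from low to bright at its granzyme end. The RefSeq table of assembly GRCm38.p6 places 15 protein-coding genes from Cma1 to Gzmb, of which 13 had a probe set naming them alone. Of these, 7 were bright, 1 was above the median, 1 was mixed and 4 were low. In chromosomal order, Cma1, mast cell chymase, was mixed at 33.1, 60.9 and 57.3, and the mast cell proteases Mcpt1, Mcpt2 and Mcpt4 were low, with means of 4.67, 12.1 and 3.48. Mcpt8, the protease by which mouse basophils are known, was bright at 1937, 1922 and 2548. Next to it Ctsg, the neutrophil protease cathepsin G, read 752, 888 and 832 and was above the median.

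From Gzme onward the signals were of another order. Gzme read 32446, 33130.3 and 34937, Gzmd 43679, 41991 and 47207 and Gzmg 28869.6, 33284 and 32258. Gzmn, which lies between Gzmg and Gzmf, interrupted the row, with signals below the array median on each array. Gzmf read 13429, 16874 and 14772, Gzmc 31241, 32716 and 34008 and Gzmb, at the end of the row, 43336, 38147 and 47885. On each array Gzmf was the dimmest of the 6 bright granzymes of the row. The probe sets of Gzmd and Gzme end in _x_at, which marks probes that may bind related sequences. A second probe set of Gzmd without that suffix read 41389, 42078 and 43187, close to the first. For Gzme no other probe set was named, so its level cannot be separated from that of its relatives here.

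**Figure D3:**
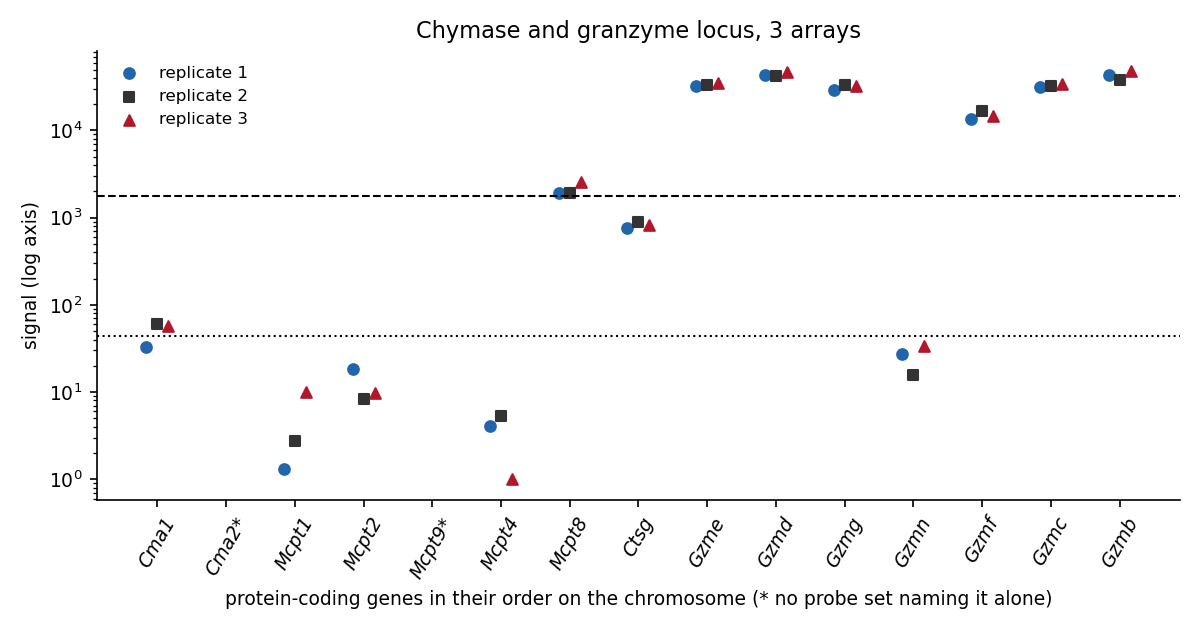
Signal of the protein-coding genes from Cma1 to Gzmb on chromosome 14 in their order, on a log axis, with 1 symbol per array; the dashed line is the mean threshold of the top 10%, the dotted line the mean array median, and an asterisk marks a gene without a probe set of its own. The mast cell proteases at the left lie at or below the dotted line, Mcpt8 lies at the dashed line, and the granzymes from Gzme to Gzmb lie above it except Gzmn.

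The promoters of 5 genes of this row are shown because their signals span the range from low to brightest and because Gzmd and Gzme are near copies. Each is 300 bases from RefSeq, assembly GRCm38.p6, from 250 before to 50 after the annotated start, on the minus strand and written 5′ to 3′. Capitals mark matches, on either strand, to TGTGGT (the core of the RUNX motif), GGTGTGA (T-box), TGANTCA (AP-1), TTCNNNGAA (STAT) and TGACGTCA (CRE). The windows are chr14:56085148-56085447 for Mcpt8, chr14:56120576-56120875 for Gzme, chr14:56132544-56132843 for Gzmd, chr14:56174550-56174849 for Gzmn and chr14:56262285-56262584 for Gzmb.
Mcpt8: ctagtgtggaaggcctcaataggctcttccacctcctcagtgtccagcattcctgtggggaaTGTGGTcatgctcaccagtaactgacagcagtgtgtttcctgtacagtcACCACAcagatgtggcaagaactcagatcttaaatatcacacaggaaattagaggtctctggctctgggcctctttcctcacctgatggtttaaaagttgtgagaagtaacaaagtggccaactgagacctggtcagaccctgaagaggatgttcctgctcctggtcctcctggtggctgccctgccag
Gzme: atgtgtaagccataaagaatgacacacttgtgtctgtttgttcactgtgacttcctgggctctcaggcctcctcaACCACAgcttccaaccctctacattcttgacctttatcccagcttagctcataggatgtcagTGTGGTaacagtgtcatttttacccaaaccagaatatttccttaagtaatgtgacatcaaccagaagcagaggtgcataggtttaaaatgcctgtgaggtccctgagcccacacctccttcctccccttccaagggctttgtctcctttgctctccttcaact
Gzmd: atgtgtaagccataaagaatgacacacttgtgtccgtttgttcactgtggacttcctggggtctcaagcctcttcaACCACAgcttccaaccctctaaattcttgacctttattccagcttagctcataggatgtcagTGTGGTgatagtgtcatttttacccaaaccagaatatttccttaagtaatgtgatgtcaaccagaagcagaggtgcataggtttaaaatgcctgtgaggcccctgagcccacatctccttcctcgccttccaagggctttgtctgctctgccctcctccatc
Gzmn: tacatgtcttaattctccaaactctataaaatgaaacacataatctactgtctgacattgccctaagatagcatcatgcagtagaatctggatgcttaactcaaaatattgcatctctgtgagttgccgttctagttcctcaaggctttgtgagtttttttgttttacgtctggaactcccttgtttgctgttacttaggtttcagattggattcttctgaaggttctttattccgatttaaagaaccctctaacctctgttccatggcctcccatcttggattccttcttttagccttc
Gzmb: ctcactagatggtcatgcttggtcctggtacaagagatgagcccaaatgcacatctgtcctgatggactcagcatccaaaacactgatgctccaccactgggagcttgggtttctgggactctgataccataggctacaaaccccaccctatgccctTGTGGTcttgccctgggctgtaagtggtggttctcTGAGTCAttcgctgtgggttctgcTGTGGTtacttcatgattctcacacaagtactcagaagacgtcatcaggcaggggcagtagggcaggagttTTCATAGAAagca

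RUNX3, with T-bet and Eomes, is a known regulator of granzyme genes, and AP-1 and STAT5 act downstream of the T cell receptor and the IL-2 receptor. The RUNX core was found in 11 of the 13 promoters of the row that the table holds, the exceptions being Gzmn and Mcpt9, against 16.8% of 32851 promoters of the same length. It was present both in promoters of low genes, such as Mcpt1 and Mcpt4, and in those of the brightest. The T-box letters were found in 0 of the 13 (3.98% of all promoters), the AP-1 letters in Gzmb alone (7.81%), the STAT letters in Ctsg and Gzmb (8.30%) and the CRE letters in Gzmg, Gzmf and Gzmc (1.79%). These genes are relatives and share sequence. The Gzmd and Gzme promoters were identical at 93.7% of their positions, Gzmg and Gzmf at 87.0%, and Gzmd and Gzmg at 85.3%, so matches in them are not separate observations. A match describes letters in the window and is neither a binding site nor a cause of a signal.

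T cell genes were bright almost throughout. Of 15 genes of the T cell receptor complex and its proximal signalling, 12 were bright and 2 were above the median. The 3 brightest were Ptprc, the leukocyte phosphatase CD45, at 29802 ± 1278, Thy1 at 24452 ± 1599.9 and Cd3d, a further receptor chain, at 19648 ± 2176. Cd3g read 10472, 8996 and 10189, which is on the same side of the threshold as Cd3e, and the zeta chain Cd247 read 2485, 2255 and 2245. The kinase Zap70 and the adaptors Lat and Lcp2, which carry the receptor's signal, had means of 3051 ± 317, 5695 ± 286 and 5690.0 ± 771, and the costimulatory receptor Cd28 3155 ± 165. Cd5 and Cd6, which damp receptor signalling, were not bright, at 148 ± 35.2 and 190.4 ± 23.5, and the adaptor Trat1 was low at 13.1 ± 2.96. The constant regions of the receptor chains were not analysed here.

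Both chains of the CD8 coreceptor were bright and the CD4 coreceptor was low. Cd8b1 read 3141, 2756 and 2681. Cd4 read 4.01, 8.56 and 5.52, Cd40lg, the helper cell ligand of CD40, 7.92, 9.84 and 4.64, and Foxp3, the factor of regulatory T cells, 20.5, 16.5 and 18.6. The remaining members of the helper and regulatory list, some of which activated CD8 T cells also express, were higher. Il2ra read 3972, 3959 and 4026, Tnfrsf18 3811, 3399 and 4533 and Icos 2869, 2696 and 2899, and Ikzf2, the factor Helios, 3227, 2585 and 2578. Altogether 4 of 11 members of this list were bright, 4 were above the median and 3 were low. Those above the median without being bright were Ctla4, Gata3, Tnfrsf4 and Zbtb7b. Gata3 read 595, 431 and 491, Tnfrsf4 316, 333 and 351 and Zbtb7b 205, 162 and 229. Which cells gave these signals was not tested. Of 6 measured genes of gamma-delta and innate-like T cells, Maf was above the median at 299, 115 and 245, Cd163l1 was low and Blk, Zbtb16, Sox13 and Il17a were mixed. The delta and gamma constant regions were not analysed here.

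Receptors shared by NK cells and activated CD8 T cells ranged from bright to low. Of 20 measured members of the NK receptor list, 7 were bright, 7 were above the median, 2 were mixed and 4 were low. Klrd1, which encodes the CD94 chain of the NKG2 receptors, read 9522, 9026 and 8747, and its inhibitory partner Klrc1 (NKG2A) 2646, 2138 and 2220.2. Klrk1 (NKG2D), an activating receptor for stress ligands, read 2279, 2901 and 2201, and Klre1 2499, 2205 and 2167. Klra7, a receptor of the Ly49 family for MHC class I, read 6473, 6569.8 and 6391 and had 1 of the smallest spreads of the list. Its probe set ends in _x_at and may bind related sequences. Cd244a, a receptor of the SLAM family, read 3131, 3146 and 3084. The adaptors that give these receptors their signal differed, with Tyrobp (DAP12) bright at 3013 ± 418 and Hcst (DAP10) above the median at 1634 ± 206.

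The members above the median without being bright were Cd160 at 1875 ± 403, Slamf7 at 1096 ± 69.7, Klrg1 at 577 ± 96.8, Crtam at 544 ± 166, the Fc receptor Fcgr3 at 495 ± 68.5 and Ncr1 at 96.2 ± 12.5. Ncr1 (NKp46), the gene most particular to NK cells among those measured, read 82.0, 105 and 101, which is above the array medians and below the 95th percentile of genes from outside the spleen given further on. Cd7 and Klra8 were mixed, at 179, 88.0 and 13.2 and 67.5, 31.9 and 47.3. The low members were Cd226 at 33.3, Itga2 at 21.8, Klra1 at 6.27 and Klrc2 at 0.813. Klrb1c (NK1.1) was not analysed here. Of the 25 protein-coding genes from Klre1 to Klra2 on chromosome 6, 14 were on the array under a name of their own. Of these, 6 were bright (Klre1, Klrd1, Klrk1, Klrc1, Klra5 and Klra7), 1 was mixed and 7 were low. Klrc3 and Klrc2, which lie between Klrk1 and Klrc1, had means of 2.80 and 0.813. Ly49 genes differ in number and sequence between mouse strains, and how well the array's probes match the DBA/2 alleles was not tested.

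Division genes were above the median without exception among the 39 measured, and 31 of them were bright. Pcna, the clamp of DNA polymerase, had a signal of 27242 ± 2361, Rrm2, a subunit of ribonucleotide reductase, 18261 ± 517, and Mcm5, part of the replicative helicase, 16759 ± 604. Genes of mitosis were bright as well, with Top2a at 13095 ± 665, Cdk1 at 7412 ± 403, Cdc20 at 9521 ± 879 and Aurkb at 2700.1 ± 40.0. Of the 9 genes of the MCM family, 7 were bright, with Mcm7 at 14312 ± 1066 and Mcm4 at 11363 ± 483 next to Mcm5, and Mcm8 and Mcm9, which act in repair, were above the median at 527 ± 39.8 and 191 ± 27.7. The lowest members were Foxm1, a transcription factor of mitotic genes, at 417 ± 21.6, and thymidylate synthase (Tyms) at 120.1 ± 21.4. The spread was small, with a median SD of 0.08 on the log2 scale.

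Genes of sugar use and antigen presentation were similarly bright. Of 15 glycolysis genes, 11 were bright and 4 were above the median, led by lactate dehydrogenase Ldha at 28332 ± 2042, Pgk1 at 24294 ± 1274 and Aldoa at 22405 ± 1901. Of the glucose transporters, Slc2a3 read 13414, 11817 and 15064 and Slc2a1 3784, 4657 and 4235. Slc2a3 was among the 2 named genes that fell to below the median or to mixed without probe sets of suffix _x_at or _s_at, the other being Acta2. The 14 measured genes of MHC class I presentation were all bright, from Tap2, a subunit of the peptide transporter, at 2048 ± 209.6, to the class I heavy chains H2-D1 at 28046 ± 2823 and H2-K1 at 32824 ± 4369.6 and B2m, their light chain, at 32795 ± 2199. Both heavy chains were read from probe sets of suffix _x_at, which may bind related sequences. For H2-D1 6 of 9 probe sets lay above the median, and for H2-K1 4 of 4. Of the same list, the immunoproteasome subunits Psmb8, Psmb9 and Psmb10 had means of 14394 ± 811, 6728 ± 35.9 and 5502 ± 231.

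A list of IL-2 receptor chains, their signalling genes and the receptors of related and other lymphocyte cytokines lay above the median in each of the 23 genes measured. Of these 10 were bright, among them Il12rb1 and Il18r1, receptor chains for IL-12 and IL-18. The beta chain Il2rb read 10098, 10661 and 10161 and the alpha chain Il2ra 3972, 3959 and 4026. The common gamma chain was not analysed here. Jak1 was bright at 6697 ± 182, while Jak3, Stat5b and Stat5a were above the median at 625 ± 19.5, 742 ± 70.2 and 373 ± 45.7. Among genes that IL-2 is known to induce, the feedback inhibitor Cish, the survival gene Bcl2 and the kinase Pim1 were bright at 6737 ± 233, 9425 ± 1097 and 5892 ± 341, while Socs2, Bcl2l1, Socs1 and Socs3 were above the median at 1955 ± 293, 1439 ± 274, 910.1 ± 93.3 and 502 ± 75.0. The survival gene Mcl1 and the growth regulator Myc were bright at 8446, 8228 and 7598 and 2975, 3912 and 3255. Of 8 suppressors of cytokine signalling, Cish alone was bright and the other 7 were above the median, from Socs5 at 467 ± 77.8 through Socs7 at 1246 ± 28.7 to Socs2 at 1955 ± 293. Il7r, the receptor of resting and memory T cells, read 329, 288 and 277.

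The gene of IL-2 itself (Il2) read 0.631, 0.699 and 2.67, far below the array medians. Of 26 measured cytokines and chemokines, 1 was bright, 13 were above the median, 3 were mixed and 9 were low. The bright one was Tgfb1 at 1938 ± 90.5. Lymphotoxin beta (Ltb), whose mean was higher still, read 4192, 1637 and 2639 and missed the top 10% on replicate 2. The T cell chemokine Ccl5 read 3017, 971 and 1634, Xcl1, which draws dendritic cells, 1691, 1233 and 973, and Ccl4 949.5, 932 and 1069. Interferon gamma (Ifng) read 538, 541 and 543 and tumour necrosis factor (Tnf) 853, 677 and 1182. The low members were Il3, Il4, Il5, Il6, Il9, Il12b, Il13 and Il21 beside Il2, with means from 1.33 to 23.0. Il10 was above the median at 60.3, 126 and 51.7 and Il17a was mixed at 15.0, 10.0 and 45.9.

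Of 14 inhibitory receptors and ligands, 3 were bright and 9 were above the median. Cd244a, Havcr2 (TIM-3) and Vsir (VISTA) were the bright ones, with Havcr2 at 2520.3, 2656 and 2645 and Vsir at 2267, 2096 and 2103. Ctla4 read 1138, 1169 and 1024, Pdcd1 (PD-1) 238, 348 and 261 and Lag3 299, 173 and 169, with Lag3 highest on replicate 1. The PD-1 ligands Pdcd1lg2 and Cd274 had means of 1721 ± 292 and 490.1 ± 10.4. Btla was mixed at 38.6, 62.0 and 21.9 and the transcription factor Tox, known from exhausted T cells, was low on each array.

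Of 23 lineage factors, 6 were bright and 15 were above the median. The brightest were Id2, which supports effector T cells and NK cells, at 16376 ± 1412, Bhlhe40 at 11608 ± 736 and the T-box factor Eomes at 6594 ± 353. Tbx21 (T-bet) and Runx3, which act with Eomes in CD8 T cells, were above the median at 1457, 1112 and 1177 and 1672, 1515 and 1400.3. For Runx3 1 of 2 probe sets lay above the median. Lef1, a factor of naive and memory T cells, was bright at 2408, 2245 and 2200.4, and Tcf7 was not analysed here. Low members were Foxp3 and Tox.

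Homing and memory genes held 9 bright members of 19. The integrin pair Itgb2 and Itgal, which form LFA-1, had means of 14199.6 ± 2098 and 12079.8 ± 1411, and Selplg, the selectin ligand PSGL-1, 11328 ± 791. Cd44, raised on antigen-experienced T cells, read 4001, 3914 and 4228, and the early activation antigen Cd69 4824, 5273 and 3803. Of 20 chemokine receptors on the array 2 were bright (10.0%), Ccr2 at 5133, 4098 and 3656 and Cxcr3 at 3358, 1837 and 2710.4, and both were highest on replicate 1. Cxcr6 followed at 1333, 1239.7 and 753. Ccr7, which guides T cells to lymph nodes, was above the median at 298, 291 and 335. S1pr1, needed to leave them, was mixed at 96.0, 85.8 and 8.01, Cx3cr1 was mixed and Itgae, the CD103 chain of tissue-resident cells, was low at 25.5, 32.9 and 25.6.

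Interferon-responsive genes were above the median in 18 of 24, but 1 was bright. This was Igtp, a GTPase induced by interferon gamma, at 8210.4, 9428 and 7499. Bst2 and Gbp2 followed at 1628 ± 103 and 1519 ± 249. Genes known from the type I interferon response were divided. Usp18, Mx1, Irf7, Ifit2 and Oas1a were above the median at 937 ± 67.3, 429 ± 91.0, 337 ± 44.9, 295 ± 53.7 and 286 ± 33.6, while Ifit1 and Ifit3 were mixed at 47.3, 29.9 and 23.3 and 29.3, 69.4 and 26.6 and Mx2 and Oasl2 were low at 3.36 and 11.7.

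B cell genes were more often low than not. Of 17 measured, 0 were bright, 4 were above the median, 2 were mixed and 11 were low, and their median percentile was 42.1. The defining genes Ms4a1 (CD20) and Cd79a read 25.9, 43.9 and 37.1 and 22.5, 19.8 and 4.65, and Pax5, the factor of B cell identity, 40.1, 30.1 and 19.1. The members above the median were Cd72 at 778, 697 and 624, the mu heavy chain Ighm at 201, 295 and 156, Cd79b at 65.9 ± 9.00 and Cd22 at 61.2 ± 11.0. For Ighm 3 of 11 probe sets lay above the median. The summed signal of the list ran from 1229 to 1517 over the 3 arrays. Of 8 plasma cell genes, 1 was bright, 5 were above the median and 2 were low. Xbp1, which other secretory and activated cells also use, was bright at 12273 ± 806, and Irf4 and Prdm1, which activated T cells express, were above the median, as were Mzb1, Derl3 and Sdc1 at 147 ± 13.8, 105 ± 28.4 and 76.8 ± 18.0. The joining chain of secreted antibody (Jchain) was low at 18.8, 11.6 and 11.8 and the plasma cell receptor Tnfrsf17 was low at 17.1, 29.7 and 7.10.

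Macrophage and monocyte genes were mostly low, with 17 of 24 below the median on each array against 38.1% of all genes, and a median percentile of 32.2. The bright member was Ccr2, which T cells share. The macrophage antigen F4/80 (Adgre1) read 17.5, 21.5 and 40.8, lysozyme 2 (Lyz2) 33.4, 34.9 and 5.72 and the integrin Itgam (CD11b) 2.22, 1.86 and 1.93. C1qa, C1qc, Marco and Cd163, all genes of tissue macrophages, had means from 0.624 to 3.41. The brightest after Ccr2 were Cd68 and Cd14, at 251, 185 and 232 and 194, 196 and 239.7. The receptor of macrophage colony-stimulating factor (Csf1r) read 87.0, 93.7 and 77.9, above the array medians on its brightest probe set, while its probe set of median signal read 9.29, 58.0 and 29.4 and was above the median on replicate 2 alone. The summed signal of the list without regard to class ran from 4597 to 5931, to which Ccr2 gave the largest share.

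Of 17 dendritic cell genes, 1 was bright, 7 were above the median, 2 were mixed and 7 were low. The bright one was Irf8, a factor of dendritic cells that activated CD8 T cells also express, at 6905, 8374 and 7592. Tcf4, a factor of plasmacytoid dendritic cells that other cells also express, read 429.7, 465 and 452, Fscn1, an actin bundler of mature dendritic cells, 374, 374 and 342, and Batf3, a factor of classical dendritic cells, 201, 323 and 246. Itgax (CD11c) read 79.6, 82.1 and 85.4. MHC class II genes gave unequal readings, with H2-Ab1 at 287, 321 and 302, Cd74, the invariant chain, at 136, 119 and 121, and H2-Aa and H2-Eb1 mixed at 61.4, 22.5 and 46.9 and 56.9, 28.5 and 23.6. Zbtb46 and Xcr1, which mark classical dendritic cells, Siglech of plasmacytoid cells, Flt3, Cd83 and Cd86 were low, with means from 3.80 to 26.8.

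Granulocyte genes were low with a few exceptions. Of 16 neutrophil genes 11 were low, and the calgranulins S100a8 and S100a9, among the most abundant proteins of that cell, read 1.79, 1.14 and 6.64 and 3.73, 2.12 and 5.60. Ctsg, in the granzyme row, and Il1r2, at 74.2 ± 10.3, were above the median, and Ltf, lactoferrin, was mixed at 42.3, 41.6 and 51.1. The 5 eosinophil genes measured, Epx, Prg2, Ccr3, Il5ra and Siglecf, were low, with means from 1.70 to 23.4. Of 14 mast cell and basophil genes, Mcpt8 was bright, and Kit, the stem cell factor receptor, and Cpa3, mast cell carboxypeptidase, were above the median at 377, 451 and 459 and 319.8, 325 and 339. The alpha chain of the IgE receptor (Fcer1a) and its beta chain (Ms4a2) were low at 4.18, 0.518 and 15.7 and 21.3, 7.33 and 15.3, as was Hdc, which makes histamine, at 4.22, 4.86 and 4.90. Thus Mcpt8, Kit and Cpa3 were not accompanied by the other 11 genes of the list, of which 3 were mixed and 8 low.

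Red cell and platelet genes were also uneven. Carbonic anhydrase 2 (Car2) and hemogen (Hemgn) were bright at 3866, 3809.6 and 4788 and 3407, 3166 and 3637, and the platelet integrin chain Itga2b was above the median at 133, 157 and 139. The alpha globin Hba-a1 read 5.97, 3.34 and 19.5 and Alas2, the haem synthesis enzyme of red cells, 2.66, 7.23 and 12.9. The platelet chemokines Pf4 and Ppbp read 27.0, 54.8 and 3.73 and 34.3, 29.7 and 31.8. The 3 Y-linked genes measured, Uty, Kdm5d and Eif2s3y, were low on each array at means of 20.8, 12.4 and 4.49, and Xist, transcribed from the inactive X chromosome, was bright at 19311, 16712 and 18560.0.

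Genes of the squamous tumour were looked for because the splenocytes had grown beside it. Of 37 squamous and epithelial genes, 0 were bright, 13 were above the median, 4 were mixed and 20 were low. Of the keratins that define basal squamous cells, Krt5 was just above the array medians at 48.2, 61.3 and 63.4 and Krt14 was low at 24.6, 23.1 and 5.09, and p63 (Trp63) was low at 14.1, 27.2 and 20.7. Krt6a, Krt8 and Krt18 read 118, 96.9 and 111, 57.6, 59.9 and 83.7 and 44.5, 49.4 and 56.4. Over the 48 keratins on the array, 0 were bright, 7 were above the median and 31 were low. The 3 brightest were Krt42 at 274, 281 and 255, Krt10 at 105, 129 and 146 and Krt81 at 108, 126 and 125. Of 20 claudins, the proteins of epithelial tight junctions, Cldn12 alone was above the median, at 539 ± 32.5, and Cldn15 and Cldn22 came next, both mixed, at 46.7 ± 7.25 and 45.8 ± 10.4.

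Some epithelial adhesion genes were well above the median. Pkp3, a plakophilin of desmosomes, read 1687, 1334 and 1589.7, E-cadherin (Cdh1) 1084, 1867 and 1116, Epcam 1104, 610.1 and 905 and the desmosomal cadherin Dsc2 792, 769 and 781. On these probe sets Cdh1 was highest on replicate 2, whereas Epcam and Pkp3 were lowest there, so these readings did not move together between arrays. A second probe set of Epcam read 148.1, 144.5 and 92.8, with replicate 3 the lowest. The partners that desmosomes need were lower, with Dsg2 at 303 ± 16.5, desmoplakin (Dsp) at 126, 48.7 and 55.2, and Jup, Dsc3 and Pkp1 low at 35.0, 20.5 and 3.89. The part of tumour cells in these signals was not tested. Of 19 genes of stroma and endothelium, 0 were bright, 6 were above the median and 12 were low, with the collagen Col1a1 at 2.78, 8.22 and 1.58, Dcn at 15.1, 4.52 and 1.62 and VE-cadherin (Cdh5) at 23.8, 17.4 and 18.8. The adhesion receptor Pecam1, which leukocytes share, was highest in that list at 274 ± 23.4, followed by Sparc at 78.3 ± 17.7 and Kdr at 78.3 ± 13.4.

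The semaphorins that the experiment varied in other groups were low in this condition. Sema3a read 20.4, 25.5 and 26.1 and Sema6a 26.4, 21.1 and 3.62. Among their known receptors, neuropilins and type A plexins were dim. Neuropilin 1 (Nrp1) read 89.0, 103 and 82.4 and neuropilin 2 (Nrp2) 43.9, 10.6 and 24.9. Plxna1 read 88.3, 70.0 and 101, Plxna4 47.1, 59.9 and 62.1 and Plxna2 8.76, 9.54 and 14.2. In contrast, the immune semaphorins Sema4d and Sema4a were bright at 6867, 6153 and 6381 and 2613, 2436 and 2581. Of the receptors known for Sema4d, Cd72 had a signal of 699.6 ± 76.8, Plxnb2 77.7 ± 14.9 and Plxnb1 60.4 ± 9.80. In all, 2 of 18 semaphorin and receptor genes were bright, 10 were above the median, 2 were mixed and 4 were low.

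A list of 46 genes of liver, pancreas, muscle, brain, eye, kidney, pituitary, testis, lung and gut shows how high a gene foreign to the spleen can read on these arrays. Of these, 0 were bright, 8 were above the median and 35 were low. The highest were Mbp, myelin basic protein, at 692, 640.4 and 736, the hormone oxytocin (Oxt) at 377, 374 and 379 and muscle creatine kinase (Ckm) at 123, 139 and 109, whereas albumin (Alb) read 4.63, 9.66 and 5.56. A transcript of the Mbp locus is known in blood cells, and 2 of its 8 probe sets lay above the median. The 95th percentile of this list was 119, 138 and 108 on the 3 arrays, and 8525 genes (46.9%) exceeded it on each. Above this stricter floor the cytotoxic granule list counted 24 members, as above the median. B cell members fell from 4 to 2 (Ighm and Cd72), plasma cell members from 6 to 3 and stromal members from 6 to 1 (Pecam1). Squamous members fell from 13 to 8 and semaphorin members from 12 to 6. Lists of lymphocyte genes fell too, with lineage factors from 21 to 17 and cytokines from 14 to 11. Interferon-responsive genes fell from 18 to 15, and T cell receptor and NK receptor genes each from 14 to 13. Mast cell members stayed at 3. The 8 squamous members were Epcam, Cdh1, Dsg2, Dsc2, Pkp3, Perp, Itga6 and Lamb3, and the keratins of that list (Krt5, Krt6a, Krt8, Krt14 and the others) were not among them.

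The 3 arrays differed little for bright genes. The bright and low classes ask for the same side of a threshold on each array. Genes that vary across it are thus left out by definition. The SD of log2(signal + 16) over the arrays had a median of 0.08 for the 2757 bright genes and 0.13 for the 7203 genes above the median that were not bright. It was 0.29 for the 6923 low genes and 0.39 for the 1310 mixed genes. The signal itself differed by more than 2-fold between the highest and lowest array for 1 bright gene (Limd2), for 154 of the 9960 genes above the median (1.55%) and for 4756 low genes (68.7%). On the log2(signal + 16) scale, which understates the range of dim genes, the counts were 0, 88 (0.884%) and 1018 (14.7%). Over all probe sets the pairs of arrays had Spearman correlations of 0.940 to 0.944, which describe agreement across genes and not across independent samples. Within the genes above the median Pearson correlations of log2(signal + 16) were 0.992 to 0.994, and within low genes 0.489 to 0.531. Low genes span a narrower range of signal, which by itself lowers a correlation, and agreement of ranks was not measured within classes. The 3′ to 5′ ratio of the actin control probe sets was 1.07, 0.993 and 1.04, and that of Gapdh was 0.818, 0.780 and 0.814. The ratios of the other 2 such controls were higher, at 8.26, 7.80 and 7.01 for pyruvate carboxylase (Pcx) and 6.82, 8.41 and 9.34 for the transferrin receptor (Tfrc). Their part in the signals was not tested.

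**Figure D4:**
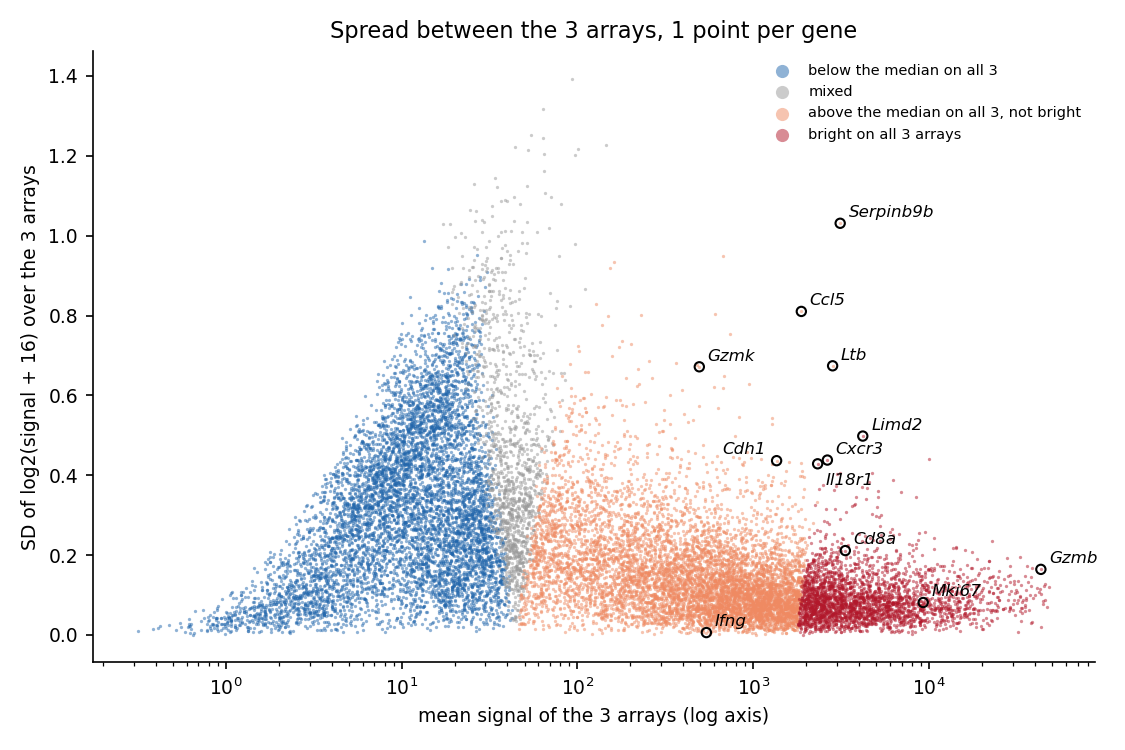
SD of log2(signal + 16) over the 3 arrays against the mean signal on a log axis, with 1 point per gene coloured by class. Bright genes have a median SD of 0.08 and low genes one of 0.29, and Serpinb9b, Ccl5, Ltb and Gzmk stand above genes of similar signal.

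Among bright genes the largest spread was that of Limd2, a LIM domain protein, which read 5683, 2841 and 4042 (SD 0.50 on the log2 scale). Mdh1, Cxcr3 and Il18r1 followed with SDs of 0.44, 0.44 and 0.43. Il18r1, a receptor chain of effector lymphocytes, read 3151, 1781 and 2027. In Limd2, Cxcr3 and Il18r1 replicate 1 was highest and replicate 2 lowest. Trp53inp1 had the same order, at 4107, 2365 and 2799.8. In Mdh1, Otud4, Rad21 and Atp5md the order was another, with replicate 2 highest and replicate 3 lowest, as in the cohesin subunit Rad21 at 4529, 5742 and 3371 and malate dehydrogenase Mdh1 at 10594, 12432 and 6881. Cnp and Atp6v0b completed the 10, with replicate 2 the lowest, at means of 6222 ± 1535 and 2488 ± 598. Limd2, Mdh1, Cnp and Atp6v0b are represented by probe sets that may bind related sequences.

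Among genes above the median, Serpinb9b, a granzyme inhibitor of the same family as Serpinb9, had the largest spread and read 3448, 1192 and 4709 (SD 1.03). Its relative Serpinb9 read 13971, 14038 and 15156, with an SD of 0.07. Tmsb15a read 1004, 273 and 736, Ccl5 3017, 971 and 1634 and Asb2 1020.1, 448 and 339. Serpinb9b, Tmsb15a and Ccl5 shared a low reading on replicate 2, whereas Asb2 was lowest on replicate 3. The others of the 10 were Acap3, Ahrr, Fbxw22, Pnmt, S1pr3 and Pou5f2, with means from 128 to 228, and Pnmt and S1pr3 were highest on replicate 2. At the other end, Ifng had an SD of 0.01 and Il2ra one of 0.01.

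For each list, the mean deviation of its above-median genes from their own 3-array means was taken on each array. The cytokine list deviated by 0.14, -0.18 and 0.04 on the log2 scale on replicates 1, 2 and 3. The homing list deviated by 0.14, -0.10 and -0.05, the NK receptor list by 0.11, -0.07 and -0.04 and the T cell receptor list by 0.09, -0.13 and 0.03. In these 4 lists replicate 1 was highest and replicate 2 lowest. The pattern was not shared by every list. The CD8 chains deviated by 0.11, 0.06 and -0.16 and the interferon-responsive genes by 0.09, 0.06 and -0.15, both lowest on replicate 3. Division genes deviated by -0.05, 0.03 and 0.02. Over all genes above the median, 3090 were highest on replicate 1, 3285 on replicate 2 and 3585 on replicate 3. The numbers that were lowest on these arrays were 3142, 3848 and 2970. The deviations over all these genes were 0.010, -0.009 and -0.0005, the same order as in the 4 lists but smaller in size. The cause of these differences was not tested.

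**Figure D5:**
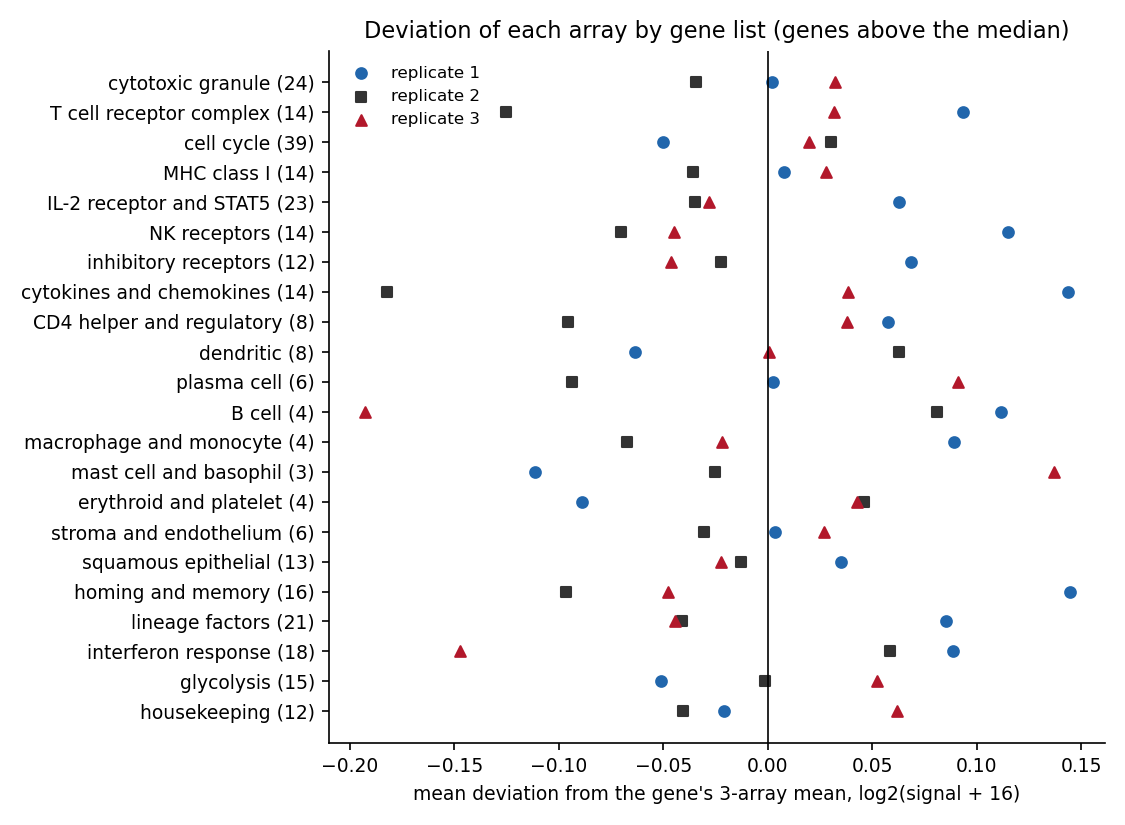
Mean deviation of the above-median genes of each list from their 3-array means, in log2(signal + 16), with 1 symbol per array and the number of genes in brackets. The cytokine, homing, NK receptor and T cell receptor lists are highest on replicate 1 and lowest on replicate 2, and interferon-responsive genes are lowest on replicate 3.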

How the data were processed

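RNA was measured on single-colour arrays, and the values used are the intensity per probe set that the authors deposited. The submitters' processing notes name MAS5 for these, and its version is not given in the sources. Trimmed by 2% at both ends, each array had a mean of 500, so arrays had been scaled. Intensities were used without further normalization. Of 45037 probe sets other than 64 controls, 34945 named 1 gene, 932 several and 9160 were not listed in the platform annotation; 34741 were matched to RefSeq by gene identifier. Each gene took the probe set of highest mean. Spread is the SD of log2(signal + 16) and percentiles are among all probe sets. No test was made.

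The arrays, markers and lists were chosen with earlier results of these data known. Named are the 5 markers, the 20 brightest genes, for each list or family described the 3 brightest and the defining members not above the median, the 10 of largest spread per class and all granule and NK receptor genes; members named beyond these were picked with their values in view. Python 3.11.15, numpy 2.4.6, pandas 2.3.3, scipy 1.17.1 and matplotlib 3.10.9 were used, and the scripts were tested on simulated data. Alternatives concerned probe sets, thresholds, normalization, pseudocount and leaving out each array.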

Additional observations from a re-analysis of the deposited data

How the results depend on the processing

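The number of bright genes was 2757 and depended on the probe set and the threshold. It was 1339 with each gene's probe set of median signal, 1300 with the top 5% and 5559 with the top 20% as threshold. For an even number of probe sets the lower of the middle pair was taken as the median, so this alternative leans to dimmer probe sets. The number of genes above the median was 9960, 8128 with the median probe set, 8525 above the 95th percentile of genes from outside the spleen, and 17939 where each of the 34945 probe sets was counted by itself. The 5 marker genes were bright without each array in turn, with the mean of the arrays and under quantile normalization. They were also bright without probe sets of suffix _x_at or _s_at, whereas 3 were with the median probe set. Cd8a, at a percentile of 94.2 among all probe sets, was not bright with the top 5% as threshold. Taken singly, not every probe set of the markers was bright, as the second of Prf1 read 59.0, 74.8 and 54.6. Leaving out 1 array gave 2801 to 2828 bright genes, 10124 to 10170 above the median and a median SD of 0.0831 to 0.0985 on the log2 scale. Fewer arrays then have to agree and each SD rests on fewer values, so these figures are not like for like with those of 3 arrays. Quantile normalization over the 3 or all 12 arrays moved 0 of 538 named genes across the median, the mean of the arrays in place of every array moved 15, and the median probe set moved 52. With the mean of the arrays the mast cell list rose from 3 to 6 genes above the median. Named genes under other probe sets were an alternative chosen after the data were seen. No paired analysis was possible because the arrays described form 1 group and no groups were compared. Of 6301 above-median genes with several probe sets, 3160 (50.2%) had a probe set not above the median. With 3 arrays and no detection calls, signals near or below the median have no settled order.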

Other observations

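Several gene families outside the lists above had clear positions. Of 39 proteasome subunits 34 were bright, led by Psma6 at 16366 ± 565, Psma3 at 15128 ± 467 and Psmb8 at 14394 ± 811, and of 48 cytosolic ribosomal protein genes 39 were bright. Of 18 cathepsins 6 were bright, with the lysosomal aspartic protease Ctsd brightest at 11054, 10133 and 10951. Among Fc receptor genes the shared gamma chain Fcer1g, which NK cells and activated T cells also use, read 13476, 13258 and 14219.7, and of the ligand-binding chains Fcgr3 and Fcgr2b were above the median at 495 ± 68.5 and 156 ± 22.2, Fcgr4 was mixed at 47.2, 77.8 and 29.9 and Fcgr1 was low at 3.35, 40.9 and 12.9. Cd48, the ligand of Cd244a, read 11113, 11010.2 and 10765, so both members of this pair were bright in 1 culture. Of 22 tumour necrosis factor receptors, 2 were bright, the costimulatory receptor Tnfrsf9 (4-1BB) at 8128, 8386 and 8317 and Tnfrsf18, and Tnfrsf1b followed at 1516, 1372 and 1437. Of the ligands, Fasl alone was bright, and Tnfsf11 (RANKL) read 1385, 1955 and 1164. The integrin alpha V chain Itgav was bright at 9998, 10641 and 9558, beside Itgb2, Itgal and Itgb1. Of 11 Toll-like receptors 0 were bright and 7 were low, with Tlr6 at 111 ± 5.02, Tlr2 at 74.0 ± 16.9 and Tlr1 at 51.7 ± 15.2 the highest. Of 28 interleukins 4 were above the median, led by Il16 at 1845, 1474 and 1856, Il24 at 207, 252 and 221 and Il18 at 195, 149 and 309. Of 33 Hox genes 28 were low, and Hoxa5, Hoxb4 and Hoxa3 were the highest at 107, 72.5 and 71.8. Of 42 collagens 28 were low, and Col23a1, Col6a2 and Col5a1 were the highest at 194, 89.4 and 81.0.

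Some probe sets lie outside the gene counts. Of 9160 probe sets not listed in the platform annotation, 217 (2.37%) were bright on each array, and of 932 probe sets that name several genes, 278 (29.8%) were, against 9.42% of all probe sets. DBA/2J, a substrain of DBA/2, is known to lack CD94 at the cell surface through a deletion in Klrd1, and Klrd1 read 9522, 9026 and 8747 here. The labels do not name a substrain, and whether the probe set lies inside that deletion was not analysed here.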
